A study of Brugia malayi with 68 samples.

Results

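Adult females of the filarial nematode Brugia malayi were compared with microfilariae, the larvae that females release, in worms from hosts that had received no drug. The comparison rests on 11 of the 68 RNA-seq libraries of the series, taken by their titles and not by any measured value. They are 6 libraries of whole females (3 from day 1 and 3 from day 7) and 5 of microfilariae (3 from day 1 and 2 from day 7). All worms came from the peritoneal cavity of Mongolian gerbils infected with larvae and kept until the infection was patent, and the days count from the time at which other gerbils were given a drug. The controls carry the name of a solvent (DMSO) in one label and are described as left without treatment in another, and they are called untreated here. Where noted, 6 libraries of untreated males and 33 female and microfilaria libraries of drug-treated gerbils serve for reference. The age of single worms, and how many worms or gerbils went into a library, are not given in the sources used here. The design text describes the replicates as biological.

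Female filariae do not lay eggs into the host's tissues. Ovaries feed oocytes into long uteri, where fertilised eggs develop through embryos into stretched microfilariae, which leave through the vulva. RNA from a whole female is therefore RNA of the mother's own tissues, such as muscle, gut and germline, together with RNA of her brood. The microfilaria is a small larva that stays arrested in development in the host until a mosquito takes it up. In such bulk samples, fewer cells of a type and less RNA per cell cannot be told apart.

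The question that the comparison addresses is which part of the gene expression of females and of their released larvae is particular to each and which part is held in common. The deposited table gives raw read counts for 11590 gene identifiers. None of the identifiers (0) was found in the reference gene table of 11688 genes and the count table holds no names, so genes are given by identifier, 0 gene lists by function were looked up, and neither stage was checked against named markers. The 6 female libraries held 6455701 to 16812365 counts and the microfilaria libraries 11348141 to 24449425. Levels are in CPM, the usual scaling of counts to library size, with a TMM factor per library that offsets a few very abundant genes. No gene lengths were available for these identifiers, so levels are mainly compared between libraries. Where genes are ranked or classed by level, or shares of counts and rank correlations are given, levels are not corrected for gene length.

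One female library stood apart from the other 5. In day 1 replicate 3 the 100 genes with most counts held 20.7% of all counts, against 12.5% to 14.2% in the other females, and its TMM factor was 0.742 against 1.05 to 1.13. The common biological coefficient of variation, edgeR's estimate of the spread between replicates, was 29.8% over the 6 females, 18.8% without that library and 14.8% over the 5 microfilaria libraries. Results are given below with all libraries, and the leading counts also without it. The first principal component, with 84.7% of the variance between the 11 libraries, separated the stages, with scores from -85.2 to -75.0 in females and from 86.3 to 104.1 in microfilariae.

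Most genes differed between females and microfilariae, and the large differences lay mostly on the female side. Of 10251 genes tested, 6164 passed an adjusted p of 0.05 in edgeR's quasi-likelihood test adjusted for day (60.1% of those tested). In 3278 of them the level was higher in females (32%) and in 2886 it was higher in microfilariae (28.2%). At 4-fold or more there were 1343 genes higher in females (13.1%) and 426 higher in microfilariae (4.16%), and at 16-fold or more 550 (5.37%) and 88 (0.858%). Without the female library that stood apart the numbers were 3618 and 3387 in all, 1326 and 434 at 4-fold and 554 and 85 at 16-fold.

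The called genes that were higher in microfilariae differed mostly by small folds. Their median difference was 1.89-fold, and 1587 of the 2886 differed by less than 2-fold. The genes higher in females had a median difference of 2.92-fold, and 1071 of the 3278 differed by less than 2-fold. Between 2-fold and 4-fold the directions were nearly even, with 864 genes higher in females and 873 higher in microfilariae. At 64-fold or more there were 215 genes on the female side and 29 on the microfilaria side. In 4759 of the tested genes (46.4%) the 6 female libraries and the 5 microfilaria libraries did not overlap in CPM, 2538 with all females above and 2221 with all females below.

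**Figure D1:**
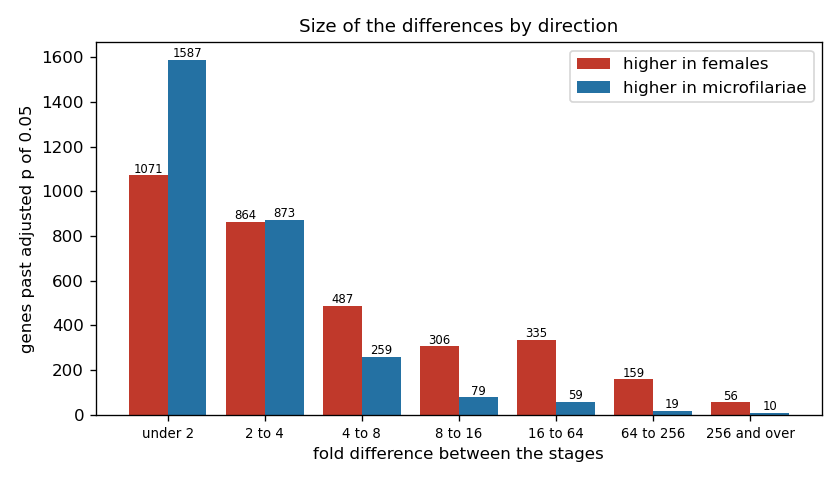
Number of genes past an adjusted p of 0.05 (y axis) by the size of the difference between untreated females and microfilariae (x axis, fold), in red where higher in females and in blue where higher in microfilariae. Below 2-fold the blue bar is the taller (1587 against 1071), and from 4-fold upward the red bars are the taller in every step.

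The filter on low counts and the call at 16-fold favour genes with reads in the stage where they are high. The levels of these genes there are given as a description. The 550 genes at least 16-fold higher in females had a median of 33.9 CPM in females, with quartiles of 10.3 and 96.4 CPM, and a median of 0.519 CPM in microfilariae. The 88 genes at least 16-fold higher in microfilariae had a median of 35.6 CPM there and 0.860 CPM in females. With the tested genes divided into 4 classes of equal size by the mean CPM in the stage where a gene was higher, the female-side genes numbered 174, 166, 119 and 91 from the lowest class to the highest. The larval ones numbered 25, 27, 18 and 18. The choice at 16-fold in these same libraries favours genes that are low in the other stage. Of the 550 genes at least 16-fold higher in females, 291 lay under 1 CPM in all 5 microfilaria libraries, and 16 had no count there at all. Of the 88 genes at least 16-fold higher in microfilariae, 37 lay under 1 CPM in all 6 female libraries, and 2 had no count there.

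The strongest example on the female side by reads was WBGene00234986. By the rule for naming genes, the pair with the highest mean CPM was taken among genes at least 16-fold different whose libraries do not overlap. In the 6 females its level ran from 3028 to 8830 CPM with a median of 6999. In the microfilariae it was 1.02, 1.08 and 0.756 CPM at day 1 and 2.41 and 1.04 CPM at day 7. All female libraries were high, all larvae were near the limit of detection, and the groups lay far apart. Mean log2 levels were 12.54 ± 0.59 (SD, n = 6) in females and 0.40 ± 0.56 (SD, n = 5) in microfilariae. The fitted difference was 12.25 on the log2 scale with an SE of 0.48 (adjusted p = 3.09e-10 by edgeR). In the 6 untreated male libraries, on a scale set over all 68 libraries, it stood between 1.17 and 6.48 CPM, so that untreated males were low as well. Drug-treated males, which are not compared here, reached 582.5 CPM with albendazole, 602.1 with diethylcarbamazine and 43.89 with ivermectin. Their medians were 7.471, 5.44 and 2.746 CPM. Between untreated females and males, in a fit of 12 libraries that called 71.6% of 10394 genes, the log2 difference was 11.33 (SE 0.59, adjusted p = 1.22e-09 by edgeR).

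WBGene00230510, the other gene of this kind, was instead abundant in both adult sexes. Its level in females ran from 669 to 2273 CPM with a median of 1576. In microfilariae it was 5.38, 6.63 and 6.35 CPM at day 1 and 6.50 and 6.72 CPM at day 7. The lowest female value came from the library that stood apart, and it still lay far above all larvae. The fitted log2 difference was 7.86 with an SE of 0.33 (adjusted p = 6.14e-10 by edgeR). On the scale of all 68 libraries the untreated males held 2849 ± 238 CPM (SD, n = 6) and the untreated females 1509 ± 512 (SD, n = 6). In the fit of the adult sexes the female level was the lower, with a log2 difference of -0.97 (SE 0.24, adjusted p = 0.00237 by edgeR).

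Among genes at least 16-fold higher in microfilariae whose libraries do not overlap, the one with the highest mean CPM was WBGene00229641. It stood at 13430, 6908 and 8625 CPM in day 1 microfilariae and at 10050 and 11180 CPM at day 7. The 6 females ran from 2.43 to 53.7 CPM with a median of 6.17. Day 1 replicate 3 (53.7 CPM) and day 7 replicate 3 (45.5 CPM) were the high female libraries, and the other 4 reached at most 6.25 CPM. The fitted log2 difference was -9.0 with an SE of 0.97 (adjusted p = 3.74e-06 by edgeR). The untreated males held between 0.222 and 0.679 CPM on the scale of all 68 libraries, below all 6 untreated females, whose lowest value on that scale was 2.45 CPM. The log2 difference between females and males was 5.36 (SE 0.93, adjusted p = 0.000161 by edgeR). Without female day 1 replicate 3 it was 4.44 (adjusted p = 0.00011 by edgeR), in a fit that still holds the other high library, day 7 replicate 3. The female mean in that fit was 12.9 CPM. The gene was thus far lower in females than in larvae and higher in females than in males, in comparisons that use the same female libraries.

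WBGene00230922 was likewise far higher in larvae than in females, while its levels in the adult sexes overlapped. Its level was 4137, 1921 and 3369 CPM in day 1 microfilariae and 3319 and 3603 CPM at day 7. In females it ran from 5.15 to 18.9 CPM with a median of 6.69, with no overlap between the stages. The fitted log2 difference was -8.51 with an SE of 0.45 (adjusted p = 4.15e-09 by edgeR). Untreated males held 4.86 to 8.53 CPM and untreated females 5.19 to 18.4 CPM on the scale of all 68 libraries, and the difference between them did not pass the test (log2 difference 0.27, SE 0.31, adjusted p = 0.456 by edgeR).

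**Figure D2:**
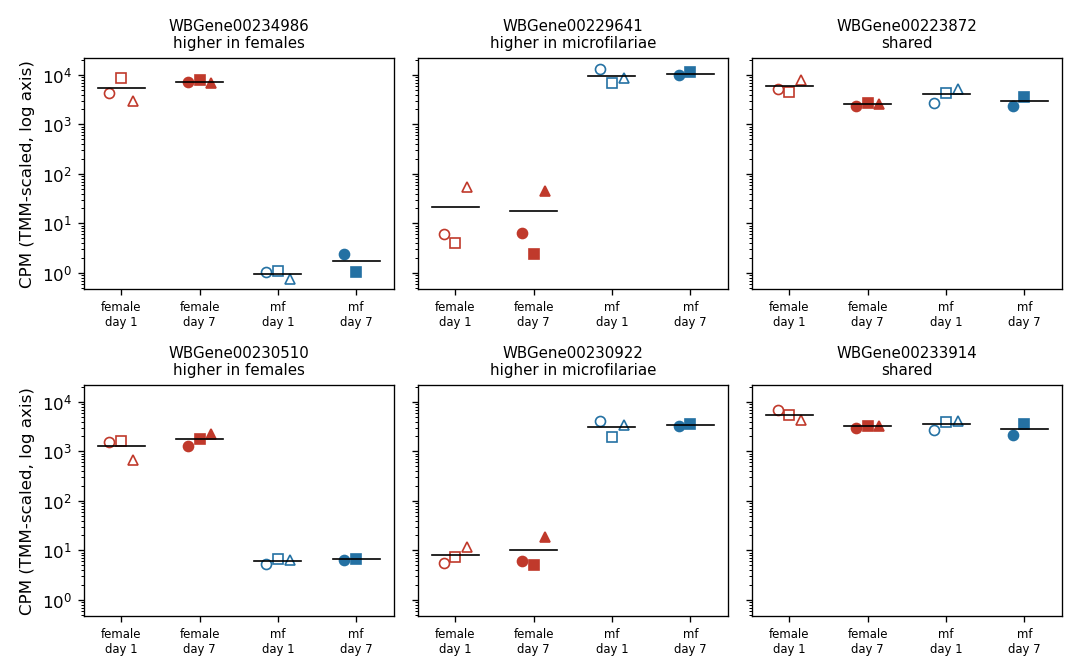
Level of 6 genes in each untreated library (y axis, TMM-scaled CPM, log axis) by stage and day (x axis; mf, microfilaria). Circles, squares and triangles are replicates 1, 2 and 3, open symbols day 1, filled symbols day 7, and lines the group means. The females lie above all larvae in the left column, below all larvae in the middle column, and overlap with them in the right column.

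A large body of genes was held in common. A gene was counted as shared where the 95% interval of its log2 fold change lay inside -1 to 1, since a p that misses the threshold does not show likeness. By this rule 4692 genes (45.8% of those tested) were within 2-fold, and 1974 were within 1.5-fold. Without the female library that stood apart, 5218 were within 2-fold. Shared and called are not exclusive: 1447 of the 4692 also passed the test, so that they differed by a small but measurable amount. At the other end, the interval lay wholly beyond 2-fold for 1621 genes higher in females and 732 higher in microfilariae. For the 3206 genes left, the interval crossed the 2-fold limit on one side or the other.

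In the lowest of the same 4 classes, with at most 14.2 CPM in the higher stage, 19% of genes were within 2-fold. In the next classes it was 46.7%, 62.3% and 55.1%. The share called different varied less, at 59.6%, 62.1%, 60.5% and 58.3%. Genes that were neither called nor within 2-fold made up 22.3% of the lowest class and 2.15%, 1.68% and 6.75% of the others. The median standard error of the log2 fold change was 0.33 in the lowest class and 0.15 in the highest.

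The shared genes with most reads were WBGene00223872 and WBGene00233914. WBGene00223872 ran from 2353 to 7962 CPM in females with a median of 3632. In microfilariae it was 2670, 4361 and 5257 CPM at day 1 and 2343 and 3504 CPM at day 7. The stages overlapped, and within females the 3 day 1 libraries (4510 to 7962 CPM) lay above the 3 day 7 libraries (2353 to 2753 CPM). Its fitted log2 difference was 0.20 with an SE of 0.26 and a 95% interval of -0.36 to 0.76 (adjusted p = 0.53 by edgeR). The difference was 0.52 with day 1 libraries alone and -0.17 with day 7 libraries alone, neither past the threshold.

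For WBGene00233914 the fitted log2 difference was 0.43 with an SE of 0.23 and a 95% interval of -0.07 to 0.92 (adjusted p = 0.12 by edgeR). Over 22 alternative settings its adjusted p ran from 0.0312 to 0.458 and passed the threshold in 3 of them. One of these was the fit without the female library that stood apart (log2 fold change 0.48, adjusted p = 0.0312). The females ran from 2944 to 6933 CPM with a median of 3816. The microfilariae had 2700, 3903 and 4169 CPM at day 1 and 2096 and 3521 CPM at day 7, overlapping with the females.

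**Figure D3:**
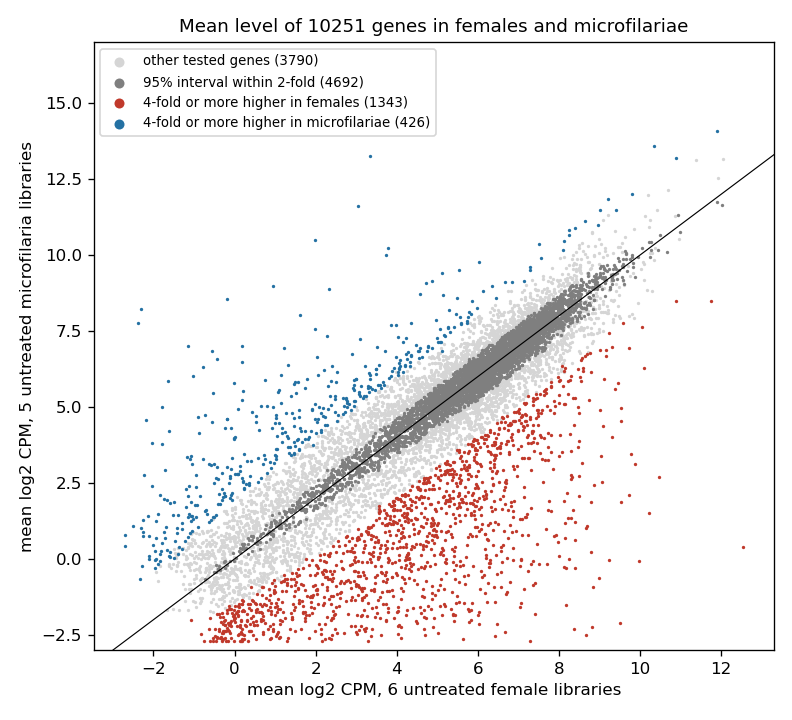
Mean log2 CPM of each tested gene in 6 untreated female libraries (x axis) and 5 untreated microfilaria libraries (y axis). Points stand for 10251 genes, coloured by class, and the line marks equal levels. The 4692 genes within 2-fold follow the line, and the 1343 genes at least 4-fold higher in females spread further from it than the 426 at least 4-fold higher in microfilariae.

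Few genes were detected in all libraries of one stage and in none of the other. At 1 CPM or more, 9082 genes were found in all 6 female libraries and 8828 in all 5 microfilaria libraries. Of these, 8420 were found in all libraries of both stages, which is 92.7% of the female number and 95.4% of the microfilaria number. In contrast, 317 genes reached 1 CPM in all females and in no microfilaria library, and 77 did so in all microfilariae and in no female library. The remaining 1579 genes reached 1 CPM in some libraries of a stage and not in others, and 1197 reached it in none.

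Ranked by level, the genes of females resembled those of microfilariae more than those of males. Over 10633 genes, Spearman's rho between a female and a microfilaria library had a median of 0.841 and a range of 0.828 to 0.858 over 30 pairs of libraries. Between a female and a male library the median was 0.711 and the range 0.654 to 0.774 over 36 pairs. Between males and microfilariae it was 0.683 (0.664 to 0.734 over 30 pairs). Within females it ran from 0.940 to 0.994 and within microfilariae from 0.991 to 0.996. Without the filter on low counts the medians were 0.868 for females and microfilariae, 0.762 for females and males and 0.738 for males and microfilariae. The genes include those kept through their level in males alone, and the part of such genes in this order was not tested. These correlations are across genes, pairs share libraries, and they are given as a description with no test.

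Microfilaria libraries put more of their reads into few genes. The 10 genes with most counts took 8.41% of counts on average in microfilariae and 4.17% in females (exact permutation p = 0.00216, two-sided, the smallest that 6 against 5 libraries allow). The 100 genes with most counts took 19.4% to 22.1% in the 5 microfilaria libraries. In females they took 12.5% to 14.2% in 5 libraries and 20.7% in day 1 replicate 3, so that the ranges overlapped through that library (exact permutation p = 0.00866). The difference of the means was 6.76 percentage points, and 8.03 without that library. Between 767 and 905 genes made up 50% of the counts in a microfilaria library. In females it was 1127 to 1299 genes, and 584 in day 1 replicate 3.

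The genes that set the stages apart made up a small share of the reads. To keep choice and measurement in different libraries, classes were chosen on one day and their share of counts was taken in the libraries of the other day. The class therefore differs between days, and stages are compared within a day. Genes at least 4-fold higher in females took 10.6%, 13.2% and 8.88% of counts in day 1 females, the last in the library that stood apart, and 12.1%, 12.7% and 13.1% in day 7 females. In microfilariae they took 0.788% to 0.938% at day 1 and 1.15% and 1.16% at day 7. Genes at least 4-fold higher in microfilariae took 12.2%, 9.85% and 12.4% of counts in day 1 microfilariae and 7.26% and 7.72% at day 7. In females they took 1.79% to 2.50% at day 1 and 0.903% to 1.10% at day 7. In both classes the stages did not overlap on either day (exact permutation within day, two-sided p = 0.005, the smallest that 200 arrangements allow). The classes were chosen for this same stage difference on the other day, so the separation shows only that the difference recurs. In males, which took no part in the choice, the female class held 9.28% to 10.2% at day 1 and 8.57% to 9.27% at day 7, and the microfilaria class 2.80% to 3.32% and 1.80% to 1.89%.

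Within each day, genes within 2-fold took a somewhat larger share of the reads of females than of microfilariae. The 4701 genes within 2-fold at day 7 took 61.5%, 59.1% and 63.1% of the counts of day 1 females and 56.1%, 59.0% and 56.7% of those of day 1 microfilariae. The 2944 genes within 2-fold at day 1 took 34.1%, 33.9% and 33.4% of the counts of day 7 females and 32.0% and 30.1% of those of day 7 microfilariae. The mean difference was 3.99 percentage points at day 1 and 2.74 at day 7, with no overlap between stages on either day (exact permutation within day, two-sided p = 0.005, the smallest possible). At day 1 the lowest female library lay barely above the highest microfilaria library (59.1% against 59.0%). Without regard to day the means were 47.5% and 46.8% (exact permutation p = 0.963), a comparison that mixes the classes of the days. The test within day was added after the data were seen.

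**Figure D4:**
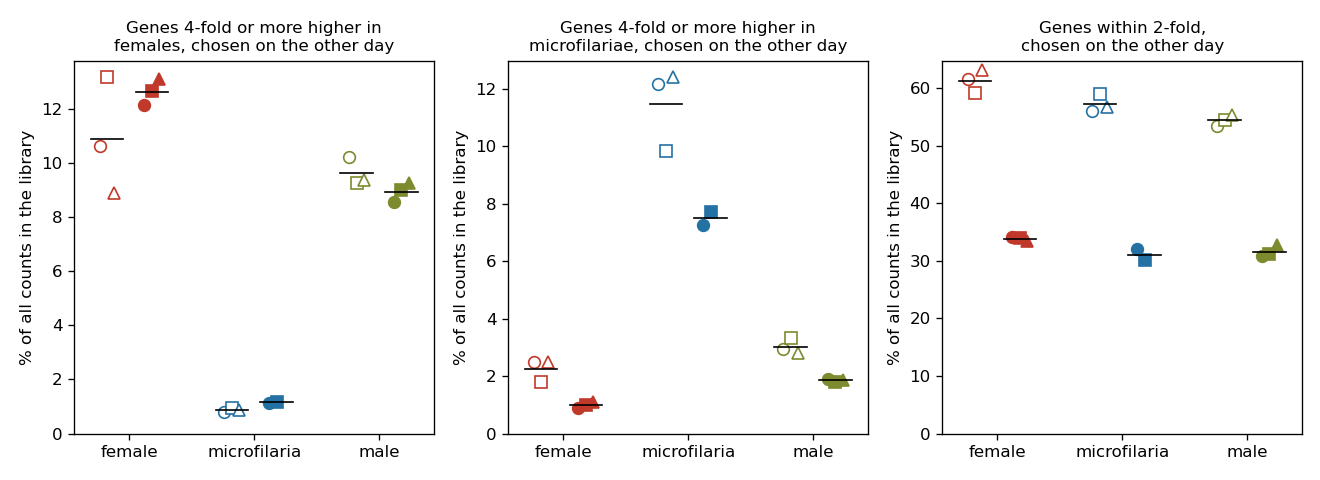
Share of all counts (y axis, percent) of genes at least 4-fold higher in females (left), at least 4-fold higher in microfilariae (middle) or within 2-fold (right), chosen in the libraries of the other day, by stage (x axis). Open symbols are day 1 and filled symbols day 7, shapes are replicates 1 to 3, and short lines give the mean of each day. The female class takes 8.88% to 13.2% in females and at most 1.16% in microfilariae, with males at 8.57% to 10.2%.

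Genes of microfilariae that males nearly lack were mostly present in whole females at a reduced level. Genes at least 16-fold higher in microfilariae than in males were chosen at day 1 (228 genes) and measured at day 7. Here and in the sets below, genes were kept if they had at least 1 CPM on the measured day in the stage where they are high. That left 220 genes. In day 7 females these stood at a median of 22.0% of the microfilaria level, with quartiles of 5.44% and 49.2%. The medians of the 3 female libraries were 19.1%, 21.8% and 23.4%. In males the median was 3.18%, which the choice of genes fixed. With the choice at day 7 and the measurement at day 1, the 201 genes stood at 25.6% in females, with 25.1%, 23.5% and 21.3% in the single libraries, of which the last is the library that stood apart.

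These genes were not held in females in one proportion. Of the 220, 54 had at least 50% of the microfilaria level in females, 26 of them above the microfilaria level, 98 had 10% to 50%, 48 had 1% to 10% and 20 had less than 1%. If the genes are widened to those at least 4-fold higher than in males, 347 of 824 had at least 50% of the larval level in females. WBGene00229641, at a female median of 6.17 CPM against 10050 CPM in microfilariae, and WBGene00230922, at 6.69 against 3369 CPM, are among the genes that females nearly lack.

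The larval genes that females nearly lack were mostly scarce in males too. Of 90 genes at least 16-fold higher in microfilariae than in females at day 1, 89 could be measured at day 7. In these the day 7 females held a median of 2.50% of the larval level, as the choice fixed. The males, which took no part in the choice, held a median of 4.98%, with quartiles of 1.2% and 16.5%. In males 21 of the 89 lay under 1% and 13 reached at least 50%. With the choice at day 7, the males held a median of 4.89% over 91 genes.

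The genes by which females exceeded their larvae ranged from genes abundant in males to genes nearly absent there. Of 505 genes at least 16-fold higher in females than in microfilariae at day 1, 502 could be measured at day 7. In these, males at day 7 held a median of 21.4% of the female level, with wide quartiles of 3.48% and 133%. In 192 of the 502 the male level was at least 50% of the female level, as for WBGene00230510, and in 59 it was under 1%, as for WBGene00234986. With the choice at day 7, 543 of 576 genes could be measured at day 1, of which 219 reached at least 50% in males and 60 lay under 1%.

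Genes by which females exceeded males were in turn partly present in the larvae. Of 336 genes at least 16-fold higher in females than in males at day 1, 333 could be measured at day 7. In these, day 7 microfilariae held a median of 6.86% of the female level, with quartiles of 0.888% and 36.4%. The level in microfilariae was at least 50% of that in females for 72 of them and under 1% for 88. With the choice at day 7 the median was 4.80% over 296 genes, with 48 at 50% or more and 84 under 1%. At 4-fold instead of 16-fold, 396 of 982 genes reached at least 50% in microfilariae.

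**Figure D5:**
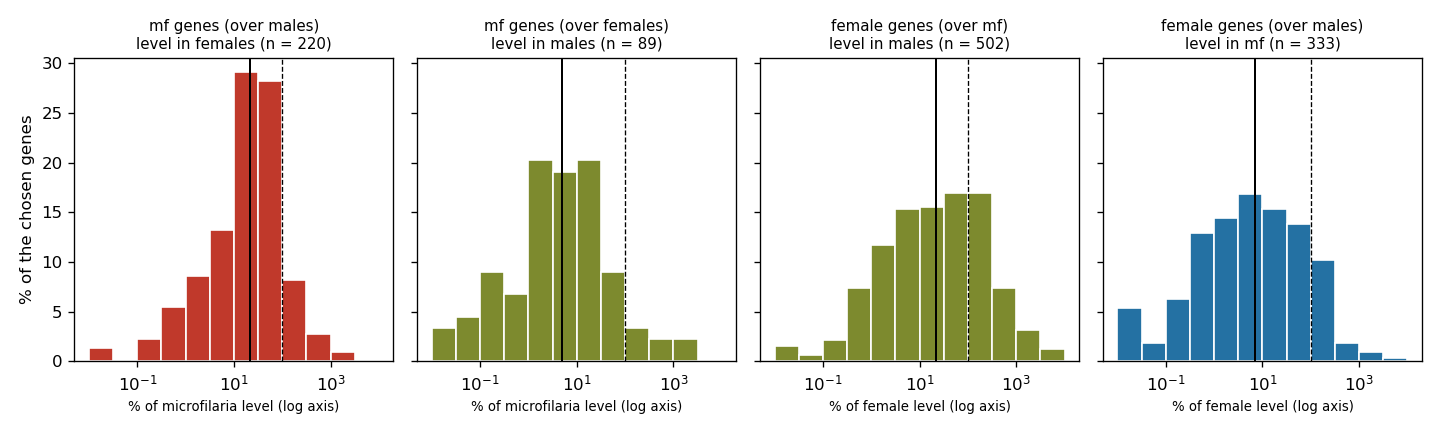
Level of stage genes in a stage that took no part in choosing them, as percent of the level in the stage where they are high (x axis, log axis), for genes at least 16-fold higher at day 1 and measured at day 7. Bars give the percent of genes in each step, solid lines the median and dashed lines 100%, with values beyond the axis in the end bars (mf, microfilaria). Larval genes that exceed males (left panel) have a median of 22.0% in females, while larval genes that exceed females have a median of 4.98% in males.

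No gene passed the threshold in a test of whether the difference between females and microfilariae changed from day 1 to day 7. With day 1 libraries alone, 2203 genes were higher in females and 1714 in microfilariae (39.5% of 9918 tested), and with day 7 libraries alone 3218 and 2708 (59% of 10041). Genes called at 4-fold or more numbered 1205 and 423 at day 1 and 1343 and 423 at day 7. Of the 1615 such genes of day 1 that were tested on both days, 1615 had the same direction at day 7, and 1599 were called there in that direction (99.0%). In the reverse check 1629 of 1634 had the same direction and 1568 were called (96.0%). A test of the change between days called 0 of 10251 genes (0%) in edgeR and 0 in DESeq2. At an unadjusted p under 0.05 there were 143 and 176 genes, where evenly spread p-values would give 513. The p-values were thus larger than evenly spread ones, and the shortfall is no evidence against a change between days. The 95% interval of that change had a median half-width of 0.86 on the log2 scale. That interval is for a single gene, and the test adjusted over all genes can miss larger changes. In simulated counts the edgeR test of this change called 2.67% of genes changed 2-fold, 58.7% of those changed 4-fold and 100% of those changed 16-fold. Those counts held no stage difference and the same spread for a gene in all libraries. The real female libraries had a coefficient of variation of 37.9% at day 1 and 14.3% at day 7, so these shares need not hold for the data. The absence of called genes therefore does not show that the difference was the same on both days.

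The stage difference was found again in worms from drug-treated gerbils, which gave 33 other libraries. The doses were 1 mg/kg of albendazole, 6 mg/kg of diethylcarbamazine and 0.2 mg/kg of ivermectin, with worms taken at the same days. Of the 1769 genes called at 4-fold or more in untreated worms, 1754 were tested in the 11 albendazole libraries, and 1722 of them were called in the same direction (98.2%). With diethylcarbamazine it was 1701 of 1742 (97.6%) and with ivermectin 1666 of 1754 (95%). The opposite direction was called for 0 genes in each. The shares of all tested genes called in these fits were 66.7%, 56.5% and 57.7% in that order. The 426 genes of the microfilaria side had a median log2 fold change of -2.68 in untreated worms, and those tested had -2.79 with albendazole, -2.87 with diethylcarbamazine and -2.79 with ivermectin. For the female side it was 3.58 in untreated worms and 3.21, 3.27 and 3.11. The untreated medians come from the libraries that chose the genes.

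Shared genes were again mostly shared there. Of 4691 shared genes tested with albendazole, 4409 were within 2-fold (94.0%, where 49.8% of all tested genes were). With diethylcarbamazine it was 4018 of 4690 (85.7%, against 41.4%) and with ivermectin 4160 of 4692 (88.7%, against 43.7%). The interval lay wholly beyond 2-fold for 0 of them in each drug. The larval genes that exceed males at day 1 stood in females at 23.0% of the larval level with albendazole, 22.2% with diethylcarbamazine and 22.1% with ivermectin, with single female libraries from 15.5% to 25.3%.

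The first named gene of each direction showed the same contrast in these libraries. On the scale of all 68 libraries, WBGene00234986 ran from 2527 to 9171 CPM in drug-treated females and from 0.404 to 2.11 CPM in drug-treated microfilariae. WBGene00229641 ran from 6379 to 19260 CPM in those microfilariae and from 2.33 to 152 CPM in those females. The value of 152 CPM came from 1 of the 6 ivermectin females, which had a median of 5.90 CPM. Both shared genes named above had higher means in females than in microfilariae with each drug, with overlapping ranges. For WBGene00233914 the means were 3828 against 2350 CPM with albendazole, 4541 against 2610 with diethylcarbamazine and 3632 against 2358 with ivermectin. For WBGene00223872 they were 3326 against 2303, 4297 against 2539 and 3406 against 2275 CPM.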

How the data were processed

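The values the authors deposited are unnormalised counts of reads for each gene and library. Library preparation was TruSeq and kept strand, per the labels' protocols. The submitters' processing notes name TopHat2 2.0.14 and also HTSeq 0.6.1p1, neither with its role. The genome build, annotation and counting options are not given in the sources used here, and reads of near-identical gene copies may be split between them.

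Columns were matched to samples by the name in the label. The main test was that of edgeR 4.0.16 (with limma 3.58.1, in R 4.3.3), and DESeq2 1.42.0 was an alternative. Figures came from matplotlib 3.10.9 under Python 3.11.15. Genes were kept by filterByExpr (minimum count 10, minimum total 15), scaled by TMM and tested two-sided in a quasi-likelihood fit of the 11 libraries with stage and day. Adjustment followed Benjamini and Hochberg over all genes tested, with 0.05 as the threshold. The standard error is the size of the log2 fold change over the square root of F. Log2 CPM uses a prior count of 2. Detection and shares of counts use CPM of total counts. Stage-to-stage percentages use TMM over the 17 untreated libraries. The fits were tested on simulated data. Genes named are the 2 per class with the highest mean CPM, among those at least 16-fold different and not overlapping, or within 2-fold. The comparison, the gene classes and the rules were chosen with earlier results of these data known. The test of the named genes between females and males was added after their levels were seen.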

Additional observations from a re-analysis of the deposited data

Results flagged for a closer look

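A library was singled out where its gap to the nearest other library of its stage was large against the range of the stage, over both days (Dixon's criterion). Of 32 sets of values examined, 7 held such a library. Chance gives such a gap in about 5% of sets, and several of these measures depend on each other.

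Of the 7, 5 concern female day 1 replicate 3. Its 100 genes with most counts took 20.67% of counts (12.47% to 14.24% in the other females), and its 500 genes with most counts took 46.84% (30.09% to 32.98%). In that library 584 genes made up 50% of the counts (1127 to 1299). Its TMM factor was 0.742 (1.055 to 1.132). Its score on the second principal component was 72.84 (-27.68 to 1.9).

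The other 2 are single genes in microfilariae. WBGene00230510 had a log2 CPM of 2.467 in day 1 replicate 1, against 2.702 to 2.78 in the other larvae. WBGene00230922 had 10.91 in day 1 replicate 2, against 11.7 to 12.01. Neither gap is large beside the difference between the stages, which is 7.86 and -8.51 on the log2 scale.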

How the results depend on the processing

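Of 385 values recomputed under another setting, 365 kept their direction and side of the threshold, or their size, and 1 reversed. A count of genes was taken to keep its size if it lay within 1.5-fold of the main count. Percentages and correlations had to stay within a limit set by the spread between libraries. The value that reversed was the log2 difference of WBGene00223872, which was never past the threshold and was -0.17 with day 7 libraries only. With day 1 libraries only, 1714 genes were higher in microfilariae and 2944 were within 2-fold, against 2708 and 4701 with day 7 libraries only. The coefficient of variation between female libraries was 37.9% at day 1 against 14.3% at day 7, and its part in this was not tested. With a margin of 1.5-fold, 1974 genes were shared. At 0.5 CPM, 47 genes were detected in microfilariae only. The level in females of larval genes that exceed males was 25.6% with the choice at day 7, 42.3% for genes at 4-fold, 25.7% with total counts only (added after the data were seen) and 21.2% to 24.3% when single libraries were left out; the cause of these shifts was not tested beyond the construction of each setting. Leaving out single libraries gave 3039 to 3618 genes higher in females, 2648 to 3387 higher in microfilariae and 4284 to 5218 within 2-fold.

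The replicate numbers were not taken to pair the samples: the deviations of same-numbered female and microfilaria libraries correlated between -0.02 and 0.14, with 2 of 5 pairs over 0.1, and 3 of 5 microfilaria libraries correlated best with the female library of their number among females of the same day (1 of 5 among all females). With a replicate block within day, 2986 genes were higher in females, 2707 in microfilariae and 4540 within 2-fold. With total counts instead of TMM the median log2 fold change of all genes moved from 0.04 to 0.13, and 60.9% instead of 53.2% of the called genes were higher in females. The numbers were then 3359 higher in females and 2155 higher in microfilariae, against 3278 and 2886 with TMM. WBGene00233914 passed the threshold with DESeq2 (adjusted p = 0.0487), without female day 1 replicate 3 (0.0312) and without microfilaria day 7 replicate 2 (0.0357). Classes of genes by level, and shares of counts by day, were recomputed after the data were seen. Depth limits mainly the genes with few reads.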
